A study of Homo sapiens with 6 samples.

Results

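The genes of the cytosolic ribosomal proteins were examined in PC9 cells, a human lung adenocarcinoma line with an activating EGFR mutation, whose growth depends on EGFR signalling. Members were the gene rows whose name has the form RPL or RPS followed by a number, with or without the suffix A, X, L or L1, together with RPLP0, RPLP1, RPLP2 and RPSA, and whose list of transcript types includes protein_coding. The rule found 84 of 58825 genes. Of these, 46 encode core proteins of the large subunit and 31 encode core proteins of the small subunit. The remaining 7 are paralogs with the suffix L or L1. By this rule FAU, RPL36AL and RACK1, which also encode proteins of the ribosome, are not members and are described as a list of their own.

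The G group was PC9 overexpressing the G allele of the FOXM1 variant rs3742076, and the A group was PC9 overexpressing the A allele. FOXM1 is a transcription factor of the mitotic programme. The cells of both groups received gefitinib, an inhibitor of EGFR, at 100 nM for 24 h, and each group had 3 libraries. Both groups thus share FOXM1 overexpression and gefitinib, and libraries lacking either were not analysed here. The vector and its promoter, and whether the line was 1 clone, are not given in the labels, nor do the labels say that the replicates were separate cultures. The p-values then reflect spread among libraries that may be only technical.

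Each ribosome is built from a small subunit, which reads the mRNA, and a large subunit, which joins the amino acids. Nearly every protein of either subunit is needed in equal number, and in growing cells the mRNAs of these proteins are among the most abundant. Most of them belong to the TOP mRNAs, which begin with a C followed by a run of pyrimidines, and whose translation is held back when mTORC1, a kinase complex downstream of EGFR signalling, is inhibited. This control acts on translation, which RNA sequencing does not measure.

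The annotated start sites of the members showed that run. A match was a C followed by at least 4 pyrimidines, C or T, with the C within 5 bases of an annotated start, searched on the transcript strand only, and no other motif was searched. RefSeq promoters (GRCh38.p14) were found by symbol for 67 of the 84 members. Of the matched core genes, 33 of 38 of the large subunit and 20 of 24 of the small subunit had such a start, in all 53 of 62 or 85.5%. Among the other genes that list protein_coding the share was 28.01% of 14803, and among all genes of the promoter table it was 25.2% of 27305. The share in the list of other TOP mRNAs, which was drawn up from that property, was 14 of 18, and it was 9 of 51 in ribosome biogenesis factors. Of the matched paralogs, 1 of 5 had the run.

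The 30 bases from 10 before the annotated start were printed for the genes the results turn on: the core genes with the smallest p-values or the largest differences in their subunit, as far as the promoter table held them, and a pair of paralogs with their core partners. The run is in capitals, and a sequence with no capitals has none at that annotated start. The first 6 hold the run and the next 2 do not. RPL22 and RPL22L1 both hold it, and RPS27L, unlike RPS27, does not.
RPL41 (chr12:56116623-56116652, plus strand): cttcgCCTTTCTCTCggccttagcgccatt
RPL24 (chr3:101686699-101686728, minus strand): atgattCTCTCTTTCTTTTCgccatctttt
RPS27 (chr1:153990752-153990781, plus strand): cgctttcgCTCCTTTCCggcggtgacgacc
RPS13 (chr11:17077648-17077677, minus strand): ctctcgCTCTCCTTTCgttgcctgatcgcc
RPL29 (chr3:51995876-51995905, minus strand): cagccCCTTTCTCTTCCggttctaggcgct
RPL14 (chr3:40457329-40457358, plus strand): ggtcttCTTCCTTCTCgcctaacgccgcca
RPL15 (chr3:23917122-23917151, plus strand): aaggcattgtgggagtacagctctttcctt
RPS26 (chr12:56041908-56041937, plus strand): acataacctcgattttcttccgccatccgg
RPL22 (chr1:6199576-6199605, minus strand): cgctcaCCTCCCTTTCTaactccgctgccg
RPL22L1 (chr3:170870176-170870205, minus strand): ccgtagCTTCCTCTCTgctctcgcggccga
RPS27L (chr15:63157458-63157487, minus strand): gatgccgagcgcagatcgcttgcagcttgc

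Across these sequences the run begins 5 to 2 bases before the annotated start and is 9 to 14 bases long. RPL15 and RPS26 hold pyrimidines further downstream, beyond the window searched, and RPL15 has 3 annotated starts, none with a match.

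The libraries as a whole set the frame for what follows. Between 12451 and 12858 genes reached 1 FPKM (fragments per kilobase of transcript, relative to each library's mapped fragments) in each, and the correlation of log2 values across genes was 0.974 to 0.979 for libraries of 1 group and 0.970 to 0.976 for libraries of different groups. The number of reads is not in the deposited tables, so the depth behind each value is unknown here. Mitochondrially encoded genes held 18.7% ± 0.98 of the summed FPKM in G libraries and 22.1% ± 0.070 in A libraries (SD, n = 3 each), and the sum over all genes was 254615 FPKM ± 812 in G and 274567 ± 3861 in A. FOXM1 itself was listed at 14.6, 14.3 and 13.96 FPKM in G libraries, against 25.5, 10.5 and 10.1 FPKM in A libraries, so A replicate 1 stood apart. The 6 epithelial keratin and adhesion markers lay between 37.1 and 1579 FPKM, with the smallest p for KRT7 (369 ± 24 FPKM in G and 446 ± 21 in A) and KRT8 (330 ± 6.7 in G and 364 ± 19 in A; SD, n = 3 each), while of 8 markers of other cell types COL1A1 alone passed 0.2 FPKM, at 1.63 to 2.25 FPKM.

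The members together held 18113, 18293 and 18650 FPKM in G libraries and 18841, 20706 and 20619 FPKM in A libraries. The lowest 3 sums are those of G, but A replicate 1 was closer to the G libraries than to the other 2 A libraries. As a share of the summed FPKM the members took 7.21% ± 0.10 in G and 7.30% ± 0.29 in A (SD, n = 3 each), and the groups overlapped. With mitochondrially encoded genes left out of the sum, the share was 8.86% ± 0.11 in G and 9.38% ± 0.36 in A, and the groups overlapped there too. The small to large subunit ratio of summed FPKM overlapped between groups, at 0.849, 0.803 and 0.838 in G libraries and 0.832, 0.827 and 0.852 in A libraries. FPKM values are relative to the other mRNAs of the same library, so fewer ribosomal protein mRNAs per cell and more of the other mRNAs cannot be told apart.

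No ribosomal protein gene passed the test between G and A. With limma-trend on log2(FPKM + 1) and a Benjamini-Hochberg adjusted p under 0.05 over 12787 genes tested, 0 of 82 tested members were called, where 0.109% of all genes were, 0.0313% higher (4 genes) and 0.0782% lower (10 genes) in G. The 2 members below the filter of 1 FPKM in 3 libraries were the paralogs RPL10L and RPL3L. The smallest adjusted p of a member was 0.160. At an unadjusted p under 0.05, 1 member was higher in G, where 10.5% of all genes were, and 28 were lower in G, where 6.82% of all genes were. Those 28 comprise 14 large subunit genes, 12 small subunit genes and 2 paralogs. In these counts the members are fewer than the background on the higher side and more on the lower side, and the members are measured in the same 6 libraries, so they are not independent of each other. The count of 28 moved with the libraries and the scaling. Leaving out A replicate 1 gave 47, where 8.4% of all genes were lower in G. Leaving out A replicate 2 gave 14, where 4.49% of all genes were, and leaving out A replicate 3 gave 16, where 4.82% were. Leaving out G replicate 1, 2 or 3 gave 18, 18 and 19, where 5.36%, 7.20% and 5.44% of all genes were. With every library scaled to the same FPKM sum 4 members were lower and 6 higher in G, where 2.16% and 22.3% of all genes were. With quantile normalization 6 were lower and 3 higher, where 7.11% and 8.65% of all genes were, so the lower count was then near the share of all genes. With median-ratio factors 34 were lower and 1 higher, where 8.32% and 8.82% of all genes were. With equal sums without mitochondrial genes 18 were lower and 2 higher, where 4.36% and 13.95% of all genes were. On the summed FPKM of each gene's transcripts, an alternative added after seeing the data, 19 were lower and 2 higher, where 5.6% and 9.61% of all genes were. In the authors' deposited table, of the 84 members 1 had a q-value under 0.05. In the authors' deposited table that was RPL15, with a q-value of 0.0414 and a log2 change of -0.61, and the next smallest q-value there was 0.426, for RPL22L1.

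With the values scaled as deposited, small negative differences ran through both subunits. The median log2 change, G minus A, was -0.11 over the 46 large subunit genes and -0.13 over the 31 small subunit genes. Over all genes tested it was 0.02. With every library scaled to the same FPKM sum the large and small subunit medians were 0.0017 and -0.024, against 0.11 over all genes. Of the large subunit genes 39 had a negative value, and of the small subunit genes 27, against 44.9% of all genes tested. With equal sums the number over both subunits was 44 of 77, in place of 66, where 26.1% of all genes were then negative. With quantile normalization the medians were -0.021 and -0.024, against 0.00083 over all genes, and 47 of 77 core genes were negative, against 49.7% of all genes. Of the 77 core genes, 72 differed by less than 0.3 on the log2 scale, and 3 genes, RPL15, RPS13 and RPL41, lay at or below -0.3, while the highest value was that of RPL29, at 0.45. The standard error of a core gene ranged from 0.037 to 0.26, with a median of 0.069.

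**Figure D1:**
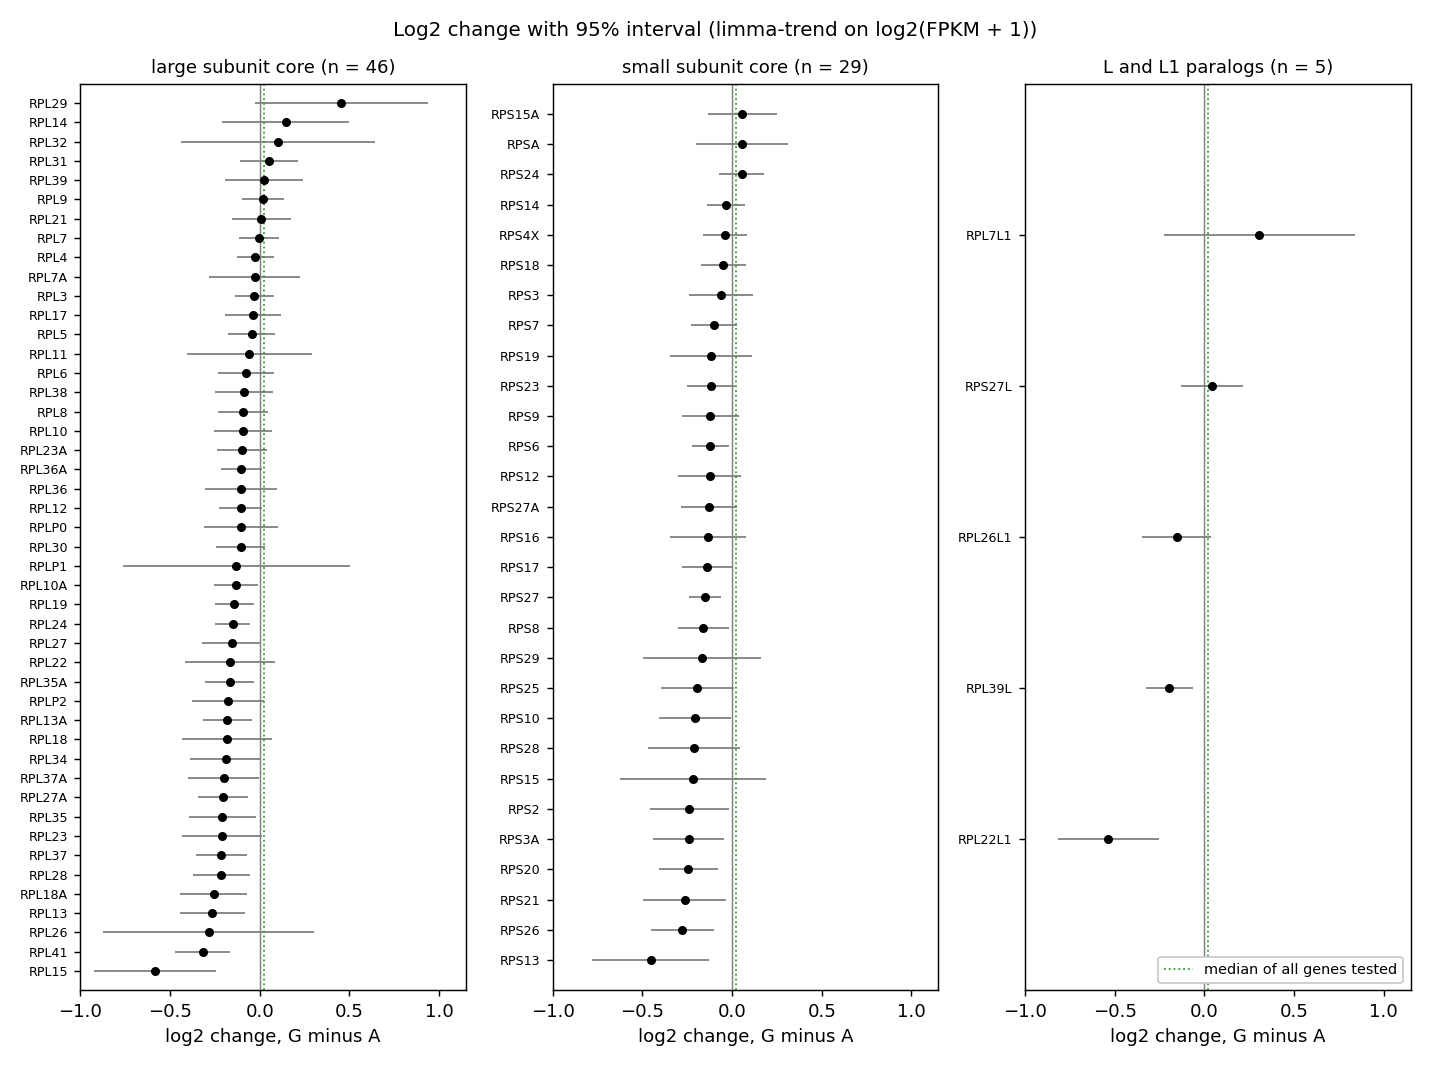
Log2 change, G minus A, of 80 of the 82 tested members with its 95% interval from limma-trend, in panels for the large subunit, the small subunit and the paralogs, with the median of all genes tested as a dotted line. Most points lie left of 0, with RPL15 at -0.58 lowest and RPL29 at 0.45 highest, and no member passed the adjusted test. With libraries scaled to equal sums the large subunit median moves to 0.0017 and that of all genes to 0.11.

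The libraries of the A group were not alike. For each core gene the deviation from its own mean over the 6 libraries was taken on the log2(FPKM + 1) scale. The median deviation over the 77 core genes was -0.083, -0.071 and -0.043 in G libraries and -0.030, 0.099 and 0.118 in A libraries. A replicate 1 thus lay next to the G libraries, and 22 of 77 core genes were above their own mean in it, against 20, 14 and 19 in the G libraries and 66 and 67 in the other A libraries. In 53 core genes A replicates 2 and 3 were both above all G libraries, where 17.2% of all genes tested were. A replicate 1 fell within the range of the G libraries for 34 core genes, above it for 31 and below it for 12.

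The groups did not overlap in 30 members that were lower in G and 2 that were higher in G, where 9.57% and 15.4% of all genes tested did so. Among the core genes these were 28 lower and 2 higher, which became 5 lower and 10 higher with equal sums, where 3.31% and 29.5% of all genes did so. With quantile normalization they were 6 lower and 7 higher, where 10.4% and 12.9% of all genes did so, and on summed transcript FPKM 19 lower and 3 higher, where 8.21% and 14.2% did. Both counts with quantile normalization, and the higher count with equal sums, are smaller shares of the 77 core genes than of all genes. Without A replicate 1 the median was -0.16 for the large subunit and -0.20 for the small subunit, and 53 core genes had both A libraries above all G libraries, where 17.3% of all genes tested did. In that fit 0 members were called by limma. A replicate 1 was singled out after its values were seen, and the medians of the large and small subunit were -0.11 and -0.12 without A replicate 2 and -0.11 and -0.093 without A replicate 3.

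**Figure D2:**
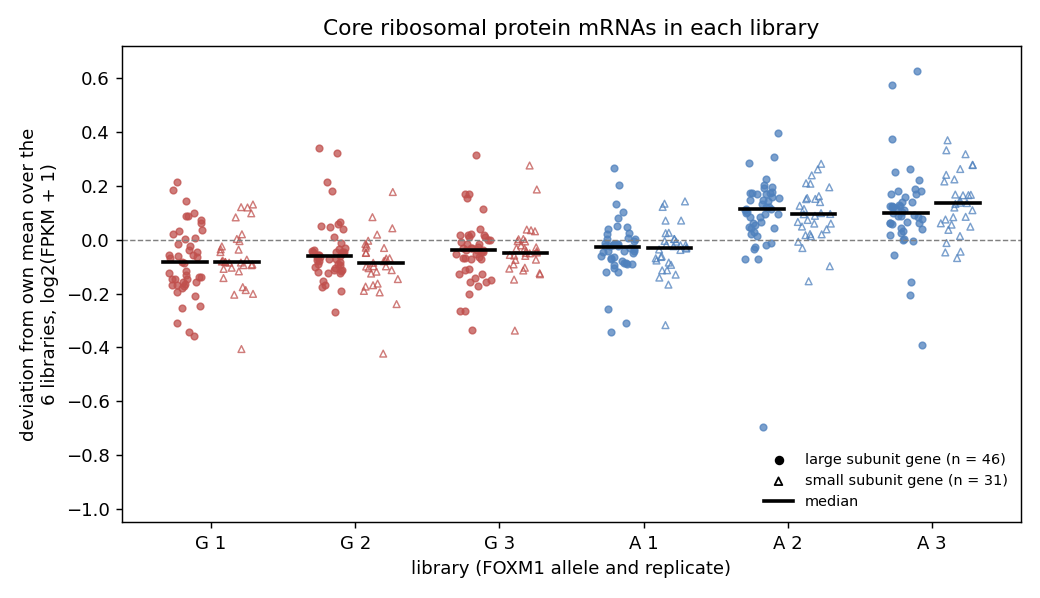
Deviation of each core gene from its own mean over the 6 libraries, in log2(FPKM + 1), by library, with filled circles for 46 large and open triangles for 31 small subunit genes and bars for their medians. The medians of the 3 G libraries and of A replicate 1 lie below 0, and those of A replicates 2 and 3 lie between 0.095 and 0.136, in either subunit; the library scaling moves all points of a library together.

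Other groups of genes shared this pattern in part. The 193 other abundant coding genes, those averaging at least 100 FPKM and neither members nor mitochondrially encoded, had a median log2 change of -0.084, with 140 negative and 0 called. Their median deviation was -0.052, -0.032 and -0.031 in G libraries and 0.0017, 0.079 and 0.054 in A libraries. At an unadjusted limma p under 0.05, 51 of the 193 were lower and 14 higher in G, beside 28 and 1 of 82 members. Groups did not overlap in 65 of the 193 that were lower and 17 that were higher, beside 30 and 2 members. Over all genes tested the shares were 6.82% and 10.5% at that p, and 9.57% and 15.4% without overlap. The 77 nuclear genes of the mitochondrial ribosome (MRPL and MRPS names, a set added after the data were seen) had a median of -0.11, with 64 negative and 0 called. Of these 77, 10 were lower and 1 higher at that p, and groups did not overlap in 19 lower and 1 higher. No test of the difference between these sets and the core genes was made.

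The most abundant core genes were compared on the summed FPKM of their transcripts, because the gene value divides by the length of all exons of a gene together and so is low for genes with retained introns. On that scale RPS2 stood first at 2114 in G and 2415 in A, and RPL13A at 1868 in G and 2116 in A, RPL28 at 1785 in G and 2161 in A, and RPL39 at 1953 in G and 1917 in A were also near the top. Differences between groups also depend on this choice. On summed transcript FPKM the log2 change of RPL37 was -0.80, that of RPL14 0.58, that of RPS27L 0.37 and that of RPS15A 0.26, and it was positive for RPS3 (0.25), RPL11 (0.047) and RPL7A (0.025), which were negative by gene FPKM; none of these was called by limma. At the other end of the core, RPS28 had 86.2 in G and 100 in A, and RPS15 had 151 in G and 178 in A. Part of this order is uncertain, since the genome holds processed copies of these genes. Rows for 1144 ribosomal protein pseudogenes were in the table, and for 10 families they held over 10% of the family's reads, with a median of 0.342% over families. For RPL9 they held 52.3%, and the pseudogene row RPL9P9, which matches the RPL9 coding sequence at 575 of 576 bases, had 639 ± 54 FPKM in G and 614 ± 47 in A, while RPL9 itself had 104 ± 3.8 FPKM in G and 103 ± 3.0 in A (SD, n = 3 each). For RPS28 the share was 28.96%, for RPL7 25.4%, for RPL21 21.4% and for RPS2 19.1%. In the annotation, the spans of 41 of the 84 members, introns included, overlap a further gene on the same strand. Whether exons overlap was not examined, so how far reads are shared is unknown here.

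By gene FPKM the named abundant genes of the small subunit differed by unequal amounts, and RPS27, also among them, is given below. RPS12, a protein of the small subunit head, had 1061, 1061 and 1096 FPKM in G libraries and 1050, 1212 and 1257 FPKM in A libraries, with A replicate 1 below every G library. RPS2, which lines the mRNA entry channel, had 791, 792 and 890 FPKM in G libraries and 987, 1072 and 865 FPKM in A libraries. The groups of RPS2 overlapped, and its log2 change was -0.24 ± 0.091 (SE, limma adjusted p = 0.265). RPS18, also of the small subunit head, had a log2 change of -0.048 ± 0.052 (SE), the smallest among these.

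Among the abundant large subunit genes, RPL13A, whose protein is also known as a released regulator of inflammatory mRNAs, had 837, 918 and 856 FPKM in G libraries and 938, 1032 and 987 FPKM in A libraries. The groups did not overlap, and the log2 change was -0.18 ± 0.056 (SE, limma adjusted p = 0.211), though 0.073 with quantile normalization. RPL10A, the protein of the stalk beside the exit site for tRNA, had 456 ± 7.3 FPKM in G and 501 ± 26 in A. RPL8, near the site of peptide bond formation, had 561 ± 31 in G and 599 ± 26 in A, and RPL7A had 519 ± 60 in G and 529 ± 54 in A (SD, n = 3 each). RPL8 and RPL7A overlapped between groups and RPL10A did not.

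RPL41 (chromosome 12, 56116590 to 56117967) had the smallest p among the members. It encodes the shortest ribosomal protein, a basic peptide at the interface of the subunits. It was measured at 580, 596 and 608 FPKM in G libraries, against 727, 808 and 694 FPKM in A libraries. All G libraries lay below all A libraries, including A replicate 1, and within G the values were close together. The log2 change was -0.32 ± 0.064 (SE, limma adjusted p = 0.160). The pseudogene row RPL41P1, identical to the RPL41 coding sequence over all 75 bases, had 161 ± 33 FPKM in G and 281 ± 19 in A (SD, n = 3 each), and did not overlap between groups either. The most abundant RPL41 transcript, ENST00000501597, held 79.3% of the gene's reads and overlapped between groups, at 1181 ± 120 FPKM in G and 1325 ± 126 in A.

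RPL15 (chromosome 3, 23916545 to 23924374), a protein of the large subunit core that is mutated in some families with Diamond-Blackfan anaemia, had the lowest log2 change. It had 54.9, 57.9 and 57.9 FPKM in G libraries, against 75.1, 77.3 and 108 FPKM in A libraries. The G libraries were nearly equal, and A replicate 3 stood above the other A libraries. The log2 change was -0.58 ± 0.14 (SE, limma adjusted p = 0.184). On the summed FPKM of its transcripts RPL15 had 257 in G and 274 in A, a log2 change of -0.092 (limma adjusted p = 0.805). Its transcripts did not move together: ENST00000307839, which held 72.2% of the gene's reads, had 91.3 ± 25 FPKM in G and 183 ± 62 in A, while ENST00000644185 had 79.6, 171 and 100 FPKM in G libraries and 19.02, 31.98 and 39.1 FPKM in A libraries (SD, n = 3). ENST00000435882, a minor coding transcript, had 9.11, 7.19 and 9.52 FPKM in G libraries and 1.88, 0.835 and 1.26 FPKM in A libraries, and its adjusted p of 0.0753 was the smallest of any member transcript. The split of reads between transcripts is an estimate of the authors' assembler.

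RPL24, a large subunit protein at a bridge to the small subunit, had 192, 186 and 190 FPKM in G libraries and 207, 216 and 209 FPKM in A libraries. RPL37, a zinc finger protein of the large subunit, had 161, 168 and 176 FPKM in G libraries and 184, 204 and 198 FPKM in A libraries. Neither gene overlapped between groups, with log2 changes of -0.15 ± 0.041 and -0.21 ± 0.058 (SE, limma adjusted p = 0.194 and 0.195). In the other direction RPL29, a large subunit protein that also binds heparin, had 203, 202 and 222 FPKM in G libraries, against 166, 110 and 194 FPKM in A libraries. The groups did not overlap, but the A libraries spread widely, and the log2 change was 0.45 ± 0.20 (SE, limma adjusted p = 0.310). RPL14 had 42.4, 36.1 and 42.7 FPKM in G libraries and 40.5, 40.9 and 28.9 FPKM in A libraries, and only A replicate 3 lay below the G values.

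RPS27, a zinc finger protein of the small subunit, had 486, 484 and 494 FPKM in G libraries, against 540, 551 and 535 FPKM in A libraries. It had the smallest standard error of the core, and its groups did not overlap (log2 change -0.15 ± 0.037 SE, limma adjusted p = 0.184). RPS26, which contacts mRNA just upstream of the start codon, had 91.7, 88.4 and 91.0 FPKM in G libraries and 108, 101 and 121 FPKM in A libraries. RPS20, of the small subunit head, had 80.1, 74.6 and 81.2 FPKM in G libraries and 85.7, 98.1 and 96.2 FPKM in A libraries. Neither overlapped between groups, with log2 changes of -0.28 ± 0.072 and -0.24 ± 0.068 (SE, limma adjusted p = 0.187 and 0.199). RPS13, at the subunit interface, had 164, 115 and 122 FPKM in G libraries, against 170, 188 and 186 FPKM in A libraries, and G replicate 1 lay close to A replicate 1. Its log2 change was -0.45 ± 0.13 (SE, limma adjusted p = 0.205), the lowest of the small subunit. RPS15A, with 90.4 ± 6.0 FPKM in G and 86.8 ± 7.0 in A (SD, n = 3 each), overlapped between groups.

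**Figure D3:**
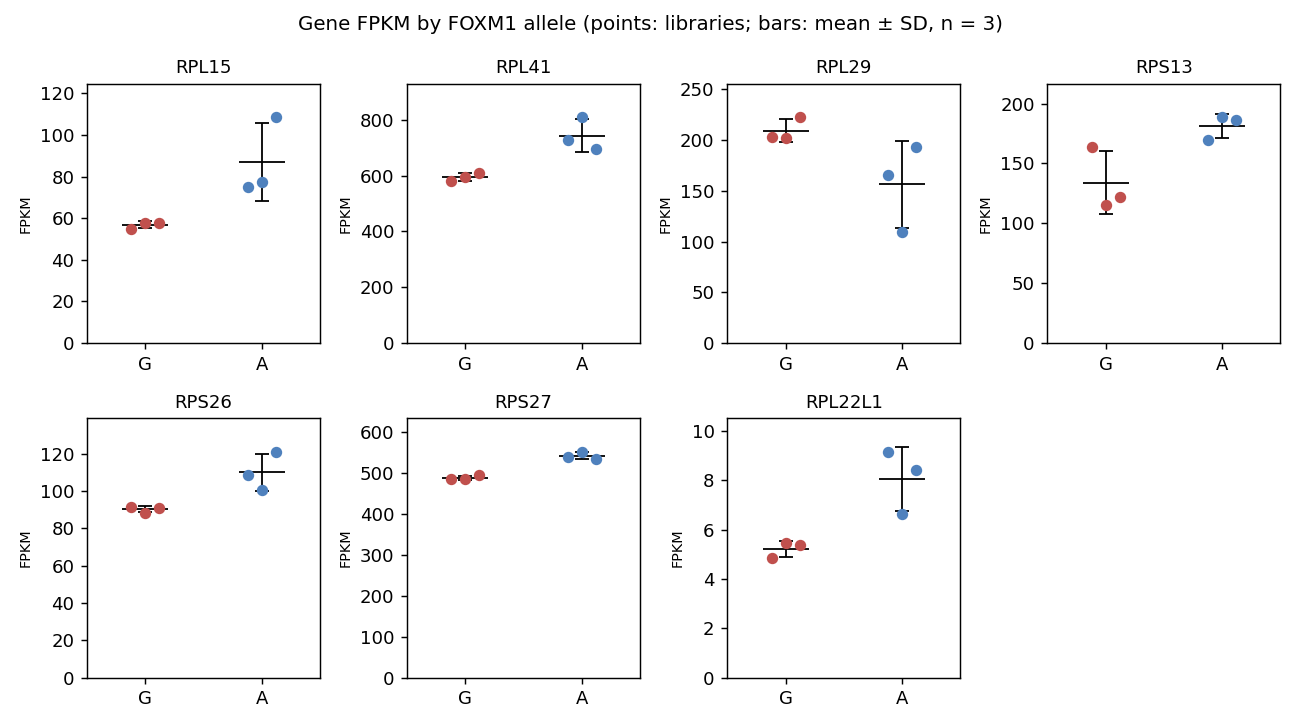
Gene FPKM of 7 members in G and A libraries, one point per library, with bars for the mean and SD (n = 3 each) and each axis starting at 0. The groups do not overlap in any of the 7; G is lower in all but RPL29, and no adjusted p is under 0.05.

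Members with roles of their own gave mixed values. RPS6, the substrate of the S6 kinases downstream of mTORC1, had 282, 291 and 282 FPKM in G libraries and 312, 318 and 300 FPKM in A libraries. The groups did not overlap, and the log2 change was -0.12 ± 0.042 (SE, limma adjusted p = 0.242), though 0.0066 with quantile normalization. RPL5 and RPL11, which with 5S rRNA bind MDM2 when ribosome assembly is disturbed, overlapped between groups, with 142 ± 7.8 FPKM in G and 146 ± 3.3 in A for RPL5 and 223 ± 34 in G and 232 ± 36 in A for RPL11 (SD, n = 3 each).

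The stalk proteins RPLP0, RPLP1 and RPLP2, which recruit the GTPases of translation, also overlapped. RPLP0 had 286, 355 and 344 FPKM in G libraries and 352, 347 and 358 FPKM in A libraries. RPLP1 had 126, 189 and 125 FPKM in G libraries and 122, 143 and 225 FPKM in A libraries, the largest standard error of the core, with a 95% interval of -0.76 to 0.51 for its log2 change. RPLP2 had 247, 261 and 259 FPKM in G libraries and 255, 311 and 306 FPKM in A libraries, where A replicate 1 again lay among the G values.

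RPSA, known also as a laminin receptor precursor, had 219, 218 and 283 FPKM in G libraries and 223, 232 and 232 FPKM in A libraries, and G replicate 3 stood above all others. RPS27A, made as a fusion with ubiquitin, had 189 ± 9.9 FPKM in G and 207 ± 13 in A (SD, n = 3 each). RPL10, which is added late in large subunit assembly, had 335 ± 18 FPKM in G and 358 ± 24 in A. RPS3, at the mRNA entry channel, had 229 ± 23 in G and 238 ± 2.6 in A, and the X-linked RPS4X 371 ± 18 in G and 381 ± 11 in A. In these 5 genes the groups overlapped.

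Some of the L and L1 paralogs are made in few tissues. RPL10L, which in mice serves meiosis in the testis, was listed without an estimate in all 6 libraries, and RPL3L, a striated muscle paralog, lay between 0.0506 and 0.257 FPKM. The other 5 were detected below every core gene on the summed transcript scale: RPL26L1 at 48.6 in G and 54.7 in A, RPL39L at 24.4 in G and 27.5 in A, RPL22L1 at 16.9 in G and 23.2 in A, RPL7L1 at 17.9 in G and 14.4 in A, and RPS27L at 10.5 in G and 7.79 in A. How far reads can be told apart depends on likeness to the partner. The coding sequence of RPL22L1 was identical to RPL22 at 66.6% of aligned positions, RPS27L to RPS27 at 77.8%, RPL26L1 to RPL26 at 84.1% and RPL7L1 to RPL7 at 55.5%. RPL39L differs from RPL39 at 8 of 153 bases, the closest pair of these 5.

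RPL22L1 (chromosome 3, 170864875 to 170870208) had 4.83, 5.45 and 5.36 FPKM in G libraries, against 9.13, 6.62 and 8.42 FPKM in A libraries. All G libraries were below all A libraries, and A replicate 1 was the highest of all, unlike in most core genes. The log2 change was -0.54 ± 0.12 (SE, limma adjusted p = 0.165). Most of its reads, 68.0%, were assigned to ENST00000475836, a transcript annotated as a target of nonsense-mediated decay, which had 13.01, 12.04 and 13.07 FPKM in G libraries and 19.6, 12.8 and 25.02 FPKM in A libraries. RPL39L had 16.3, 15.8 and 17.2 FPKM in G libraries and 18.8, 18.9 and 19.1 FPKM in A libraries, with no overlap (log2 change -0.19 ± 0.053 SE, limma adjusted p = 0.195). RPL26L1, RPS27L and RPL7L1 overlapped between groups, with log2 changes of -0.15 ± 0.079, 0.041 ± 0.071 and 0.31 ± 0.22 (SE).

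The ratio of a paralog to its partner within a library does not depend on the scaling between libraries except through the pseudocount. Over 5 pairs, the log2 ratio of RPL22L1 to RPL22 was -3.92, -3.49 and -3.55 in G libraries and -3.23, -3.37 and -3.26 in A libraries, a difference of -0.37. RPL22, an RNA-binding large subunit protein with 77.5 ± 8.8 FPKM in G and 87.0 ± 8.5 in A (SD, n = 3 each), overlapped between groups. RPL39L to RPL39 differed by -0.22, with RPL39 at 364 ± 38 FPKM in G and 358 ± 22 in A. RPS27L to RPS27 differed by 0.19, the opposite way. In these 3 pairs the groups did not overlap by gene FPKM, and each gave the smallest p that the exact two-sided permutation test allows for 3 against 3 libraries, p = 0.1, and 0.167 adjusted over the 5 pairs. On summed transcript FPKM, RPL22L1 held 6.94%, 7.78% and 9.99% of its pair in G libraries and 10.2%, 7.98% and 10.1% in A libraries. RPL39L held 1.16%, 1.35% and 1.21% in G and 1.46%, 1.48% and 1.32% in A. Both pairs thus overlapped on that scale. RPS27L did not, at 0.84%, 0.62% and 0.98% in G and 0.56%, 0.56% and 0.53% in A.

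RPL7L1 to RPL7 differed by 0.31 (exact two-sided permutation p = 0.3, adjusted 0.375), with RPL7 at 169 ± 4.1 FPKM in G and 170 ± 5.7 in A (SD, n = 3 each). RPL26L1 to RPL26 differed by 0.13 (exact two-sided permutation p = 0.8, adjusted 0.8). RPL26 was at 179, 258 and 176 FPKM in G libraries and 175, 293 and 288 FPKM in A libraries, and the low and high values cut across the groups. RPL3, the partner of RPL3L, was at 296 ± 6.4 FPKM in G and 302 ± 10 in A (SD, n = 3 each).

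**Figure D4:**
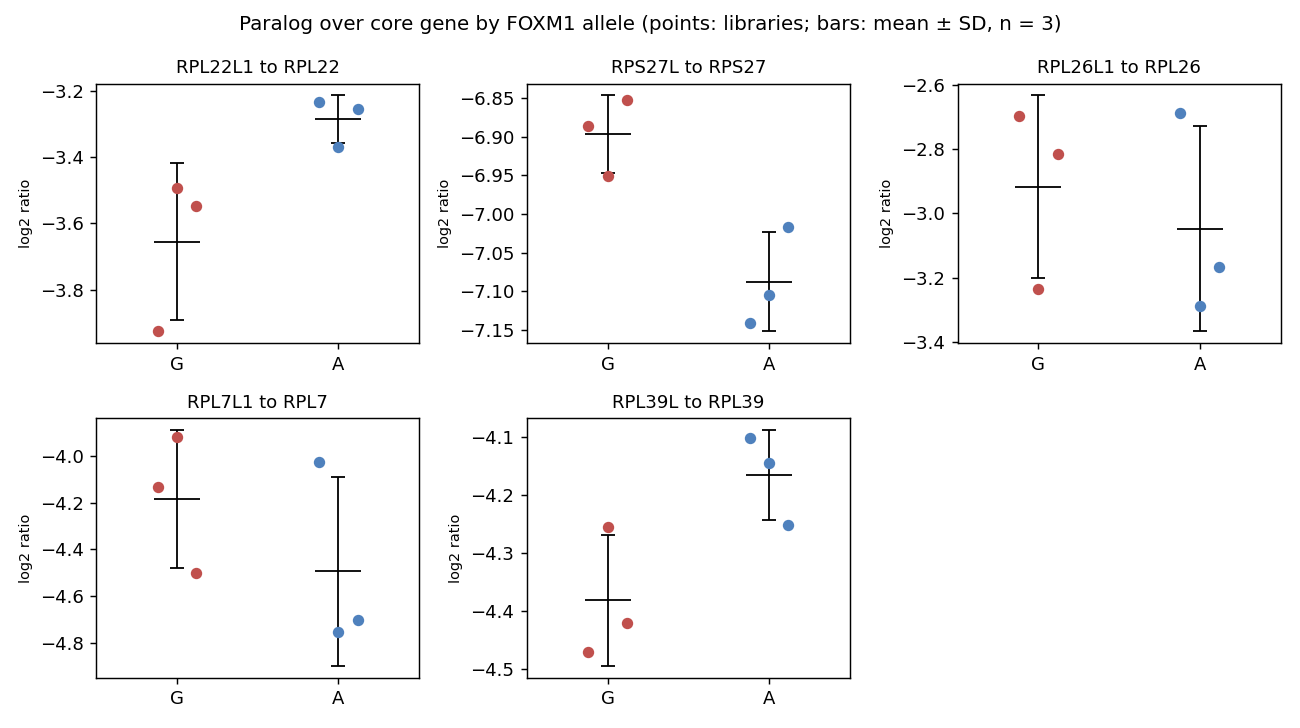
Log2 ratio of each detected paralog to its core partner, from log2(FPKM + 1) values, in G and A libraries, one point per library, with bars for the mean and SD (n = 3 each) and axes that do not start at 0. RPL22L1 and RPL39L are lower relative to their partners in all G libraries, RPS27L is higher in all G libraries, and the other pairs overlap. On summed transcript FPKM the RPL22L1 and RPL39L pairs overlap too. The exact p was 0.1 at its smallest.

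Among transcripts, 544 of the 830 listed for the members passed the filter and 0 were called by limma, where 0.147% of 29990 transcripts were called. At an unadjusted p under 0.05, 14 were higher and 34 lower in G, together 8.82% of the members' transcripts tested, against 7.81% of all transcripts. The counts over all transcripts were not split by direction. With equal sums 21 were higher and 21 lower, where 2595 of 29990 transcripts passed in either direction. Leaving out A replicate 1 gave 19 higher and 53 lower of 514 tested, where 2479 of 27793 transcripts passed in either direction. Leaving out A replicate 2 gave 23 higher and 19 lower of 512, where 1799 of 27945 did. Leaving out A replicate 3 gave 21 higher and 18 lower of 527, where 1793 of 27869 did. Transcripts of type protein_coding held 83.1% ± 0.55 of the members' reads in G and 82.6% ± 0.40 in A, and retained introns held 10.3% ± 1.1 in G and 9.88% ± 0.92 in A (SD, n = 3 each). For 77 of 83 members with an estimate the transcript with most reads was protein_coding, and it was the same transcript in all 6 libraries for 49. Swings between transcripts of 1 gene were large: ENST00000549098 of RPLP0 had 550, 670 and 4.45 FPKM in G libraries and 704, 5.57 and 722 FPKM in A libraries, which cut across the groups. Beside that of RPL15 given above, the adjusted p was 0.0852 for ENST00000581741, a retained intron transcript of RPL17 with 13.6, 10.5 and 16.4 FPKM in G libraries and 3.23, 1.68 and 2.18 FPKM in A libraries, and it was 0.294 for ENST00000645119, a minor coding transcript of RPL5 at 2.21 to 11.8 FPKM in G libraries and listed without an estimate in A libraries.

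The genes that make, carry and regulate ribosomal proteins were read from lists, and 0 genes were called in each. Of 60 ribosome biogenesis factors 58 were tested, with a median log2 change of -0.036 and 36 negative. Their smallest p values belonged to NOP16, a nucleolar factor of the large subunit, with 3.36 ± 0.44 FPKM in G and 4.65 ± 0.11 in A, and EIF6, which keeps large subunits from joining, with 66.4 ± 4.1 in G and 77.6 ± 1.7 in A (SD, n = 3 each; limma adjusted p = 0.182 and 0.187). Of RNA polymerase I and its factors 19 of 20 were tested, with a median of -0.060, led by the shared subunits POLR2L (36.3 ± 2.4 FPKM in G and 45.2 ± 3.6 in A) and POLR2E (17.8 ± 0.28 in G and 21.0 ± 1.6 in A).

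Of 25 TOP genes that are not members 24 were tested, with a median of -0.068 and 19 negative, and all 4 proteins of the ribosome outside the name rule were negative, with a median of -0.10. BTF3, a subunit of the nascent chain complex, had 138 ± 5.5 FPKM in G and 150 ± 5.2 in A, and RPL36AL 114 ± 4.4 in G and 124 ± 5.9 in A (SD, n = 3 each).

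The 15 mTORC1 and TOP regulators had a median of 0.053 with 6 negative. EIF4EBP2, a repressor of cap-dependent translation, had 35.3, 33.9 and 34.9 FPKM in G libraries and 31.7, 30.4 and 30.8 FPKM in A libraries, and DEPTOR, an inhibitor of mTOR, had 6.38, 6.28 and 5.57 FPKM in G libraries and 5.28, 4.92 and 4.88 FPKM in A libraries. Neither overlapped between groups (log2 change 0.16 ± 0.046 and 0.23 ± 0.072 SE, limma adjusted p = 0.203 and 0.212). Of 17 names listed for chaperones and importins of ribosomal proteins, 15 matched a gene tested, with a median of -0.026. The histone chaperone relative NAP1L4 had 14.4 ± 1.9 FPKM in G and 10.8 ± 0.78 in A, and NOP53, which binds 5S ribonucleoprotein, had 36.6 ± 2.0 in G and 45.9 ± 5.4 in A (SD, n = 3 each).

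**Figure D5:**
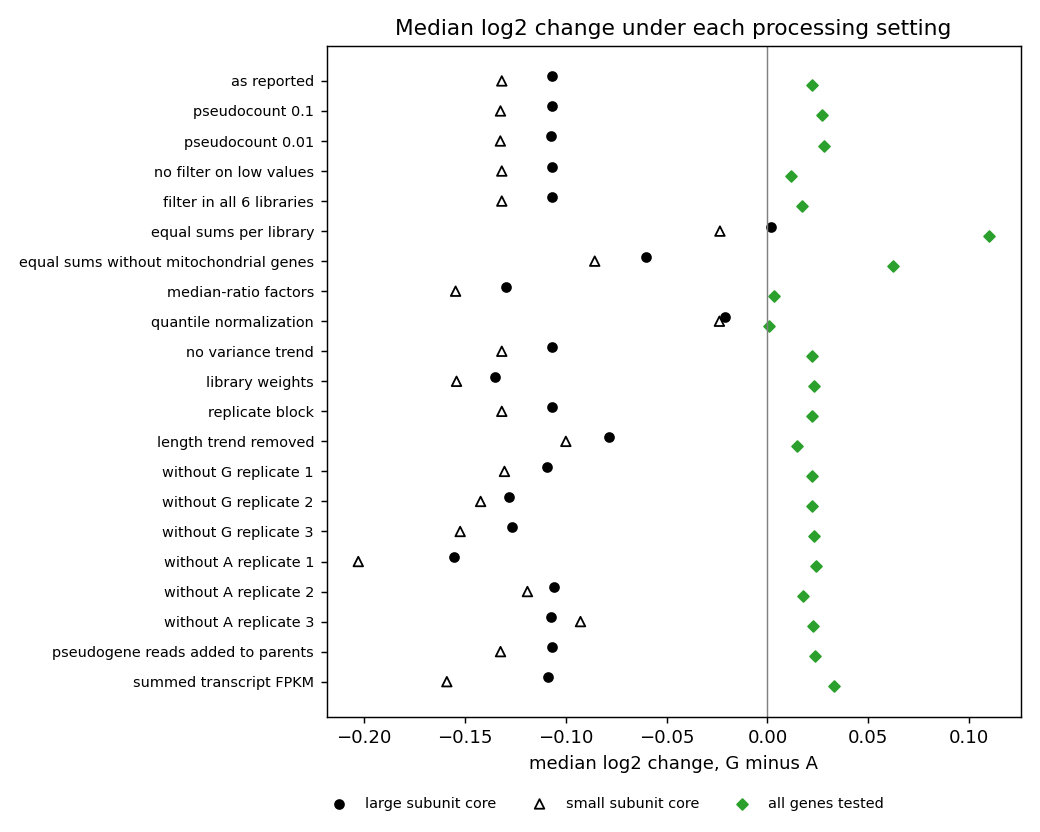
Median log2 change, G minus A, of large subunit genes (circles), small subunit genes (triangles) and all genes tested (diamonds) under the reported setting and 20 alternatives. Both subunits lie to the left of all genes in each setting, by 0.022 and 0.025 with quantile normalization and by 0.18 and 0.23 without A replicate 1, and with equal sums the large subunit lies at 0.0017 and all genes at 0.11.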

How the data were processed

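Poly(A) RNA of 6 PC9 libraries, 3 per FOXM1 allele, was sequenced as stranded read pairs, per the labels' protocols. Per the submitters' processing notes, reads were handled with cutadapt (1.9), HISAT2 (2.0.4) and StringTie (1.3.4d). The notes name a mouse build, whereas the identifiers and positions in the files are human (GRCh38). Not given in the sources used here are the annotation release, the setting for strand and the authors' test. The authors deposited FPKM for 58825 genes and 208460 transcripts, in which 0.0001 stands for no estimate, with their own log2 fold change and q-value, per the file headers. Gene FPKM equals the length-weighted sum of its transcripts over the length of all its exons, so it and the plain sum of transcript FPKM differ wherever reads shift between transcripts. Levels between genes were compared on that plain sum.

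From these values log2(FPKM + 1) was computed for genes with at least 1 FPKM in 3 of 6 libraries. It was fitted with limma 3.58.1 (trend, R 4.3.3) over all genes, G minus A, with Benjamini-Hochberg adjustment and no covariate. A fold on this scale understates the change of low genes. Depth was not available, so no count test was used. Paralog ratios were tested with exact two-sided permutation (scipy), adjusted over 5 pairs. The members, lists and rule for naming genes were chosen with earlier results of these data known. Genes named were, in each subunit, the 5 most abundant, the 4 with the smallest p and the 2 largest and 2 smallest differences, all paralogs and partners, genes with set roles, and the 2 smallest p of each list; a few genes are not reported here. On simulated data for this comparison, 12787 genes with 200 changed, the share called was 8% at a 1.2-fold change, 64% at 1.5-fold and 90% at 2-fold. Alternatives changed the pseudocount, filter, scaling, variance model, library weights, replicate block, length trend and the libraries used, and, added after seeing the data, gave the reads of pseudogene rows to their parent genes or took summed transcript FPKM in place of gene FPKM.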

Additional observations from a re-analysis of the deposited data

How the results depend on the processing

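No member was called under any of the 20 alternatives, with the smallest adjusted p of a member between 0.055 and 0.37. Across the alternatives that keep all libraries, 4 to 38 members were lower in G at an unadjusted p under 0.05, in place of 28, and 14 to 47 when 1 library was left out. The share of all genes lower in G moved too. It was 2.16% to 8.75% with all libraries kept, in place of 6.82%, and 4.49% to 8.40% with 1 left out. In the simulation 8% of 1.2-fold changes were called, so differences of that size were rarely detectable in genes drawn from all those tested. The core genes are more abundant than the other coding genes tested, with medians of 183 and 5.95 FPKM. The share called among members was not simulated. Pseudogene copies limit the levels of RPL9, RPS28, RPL7, RPL21 and RPS2, and adding their reads to the parents left the medians at -0.11 and -0.13. The labels give both groups replicates 1 to 3. The deviations of same-numbered libraries correlated at 0.073, 0.015 and 0.040, against -0.056 to 0.016 for libraries of different numbers. Whether same-numbered libraries were handled together is not given in the labels and was not tested. With the replicate block the medians were -0.11 and -0.13 and 0 members were called.

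With equal sums per library the median was 0.0017 for the large and -0.024 for the small subunit, and with quantile normalization -0.021 and -0.024; the groups then did not overlap in 15 core genes (5 lower and 10 higher in G, where 3.31% and 29.5% of all genes did so) and 13 (6 lower and 7 higher, where 10.4% and 12.9% did), in place of 30 (28 lower and 2 higher). The scaling itself differs, with all genes at 0.11 and 0.00083. With median-ratio factors the medians were -0.13 and -0.15, against 0.0035 over all genes. Groups then did not overlap in 29 core genes lower and 2 higher, where 11.4% and 13.3% of all genes did so. With equal sums without mitochondrial genes the medians were -0.060 and -0.086, against 0.062 over all genes. There 21 core genes lower and 2 higher did not overlap, where 6.43% and 19.7% of all genes did so. Leaving out each library in turn gave -0.16 to -0.11 for the large subunit, -0.20 to -0.093 for the small subunit, 63 to 68 negative core genes and 0 to 1 called transcripts. The called transcripts were ENST00000593052 of RPS15 without G replicate 3, ENST00000482069 of RPS24 without A replicate 1 and ENST00000550973 of RPL18 without A replicate 2, and the cause was not tested. No paralog ratio changed sign, with differences of -0.45 to -0.23 for RPL22L1, -0.28 to -0.17 for RPL39L, 0.16 to 0.23 for RPS27L, 0.18 to 0.54 for RPL7L1 and 0.010 to 0.31 for RPL26L1.

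Of 39 named members tested, 19 kept their sign throughout and 20 did not, none of them called in any setting. Values of the other sign were, with equal sums, 0.014 for RPL10, 0.049 for RPL11, 0.079 for RPL3, 0.064 for RPL5, 0.11 for RPL7, 0.080 for RPL7A, 0.015 for RPL8, 0.0020 for RPLP0, 0.061 for RPS18, 0.047 for RPS3 and 0.068 for RPS4X. With quantile normalization they were 0.058 for RPL11, 0.073 for RPL13A, 0.085 for RPL3, 0.053 for RPL5, 0.10 for RPL7, 0.060 for RPL7A, 0.022 for RPL8, 0.020 for RPS12, 0.043 for RPS18, -0.0086 for RPS27L, 0.051 for RPS3, 0.077 for RPS4X and 0.0066 for RPS6. With the length trend removed they were 0.00069 for RPL11, 0.056 for RPL7, 0.044 for RPL7A, 0.036 for RPS18, -0.036 for RPS27L and 0.011 for RPS4X. With equal sums without mitochondrial genes they were 0.017 for RPL3, 0.0020 for RPL5, 0.043 for RPL7, 0.018 for RPL7A and 0.0056 for RPS4X, with median-ratio factors -0.0015 for RPL39 with library weights 0.022 for RPL7A and with summed transcript FPKM 0.047 for RPL11, 0.025 for RPL7A and 0.25 for RPS3. Leaving out each library in turn gave -0.18 to 0.060 for RPL11, -0.070 to 0.0018 for RPL5, -0.025 to 0.023 for RPL7, -0.12 to 0.054 for RPL7A, -0.32 to 0.13 for RPLP1, -0.067 to 0.12 for RPSA, -0.031 to 0.11 for RPL39, -0.014 to 0.23 for RPL14 and -0.0048 to 0.11 for RPS15A. The cause of these sign changes was not tested.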
